A study of Homo sapiens with 6 samples.

Results

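The genes described here make the enzymes and subunits that shorten and destroy mRNA. They are 36 genes taken by symbol from the deposited expression table, which lists 27420 genes, and each symbol was found once. By role, 10 belong to the CCR4-NOT deadenylase group, which includes CNOT4 but not RQCD1, the gene of subunit CNOT9. A further 10 are subunits of the RNA exosome, and 6 are decapping and 5′ decay factors. The rest are the 7 proteins LSM1 to LSM7, and the 3 further deadenylase genes PAN2, PAN3 and PARN. All 36 were active, meaning above 1 FPKM with DMSO, in both cell lines. FPKM counts fragments after correction for transcript length and library size, so levels of different genes can be set side by side per length.

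RNA was sequenced from A673 and SKNMC, established Ewing sarcoma cell lines, each treated for 6 h with THZ1, at 50 or 200 nM, or with its vehicle DMSO. THZ1 is a covalent inhibitor of CDK7, the kinase of the transcription factor TFIIH that phosphorylates the C-terminal domain of RNA polymerase II, and the series asked which transcripts depend on it. Each condition is 1 library, so a difference within a line has no replicate spread beside it, and both doses of a line were compared with the same DMSO library. The cell line was used as a block in 1 test of the differences that both lines share. The lines were grown in culture, the labels give no clone or further genotype, and the table's title speaks of an average without saying over how many cultures.

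Cytoplasmic mRNA decay usually begins when deadenylases remove the poly(A) tail. The PAN2-PAN3 enzyme trims long tails and the CCR4-NOT complex removes the rest. The body of the mRNA is then degraded from its 3′ end by the exosome, or its cap is removed by DCP2 and XRN1 degrades it from the 5′ end. A ring of LSM1 to LSM7 binds the shortened tail and activates decapping. Subunits LSM2 to LSM7 also sit, with LSM8, in a nuclear ring on U6 snRNA.

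The listed FPKM values summed to between 97.8% and 100.5% of the DMSO sum of the same line, and the read depth is not known from FPKM. All 11 Ewing sarcoma marker genes examined, CCND1 and CD99 among them, were above 1 FPKM in all 6 libraries. Of 13 matched markers of blood, epithelial, endothelial, liver, muscle and stromal cells, 0 were above 1 FPKM in A673, with sums from 0.533 to 0.804 FPKM. In SKNMC, PTPRC, LUM and DCN passed 1 FPKM, the sums over the 13 genes were 65.9 FPKM with DMSO, 79.1 at 50 nM and 118 at 200 nM, and CD3E and KRT5 were listed at 0 in all 6 libraries. The part of these genes in the SKNMC results was not tested.

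With THZ1 most of the 36 genes were lower than with DMSO in both lines, but the subunits of one complex did not move together. EXOSC3, EXOSC4 and DCP1B were at least 2-fold lower at both doses in both lines, CNOT10 at both doses in SKNMC and at 50 nM in A673. The catalytic genes CNOT8 and CNOT6L were at least 2-fold lower only at 200 nM, and most genes of the LSM ring lay close to their DMSO level or above it. Fold changes are log2 differences of FPKM + 1, which understate the change of low genes, and each is relative to the fragments of its own library. Levels follow the order DMSO, 50 nM and 200 nM, and sets of 4 log2 differences follow the order A673 at 50 and 200 nM, then SKNMC at 50 and 200 nM. FPKM cannot tell fewer cells from less RNA per cell, since both leave the same relative values.

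**Figure D1:**
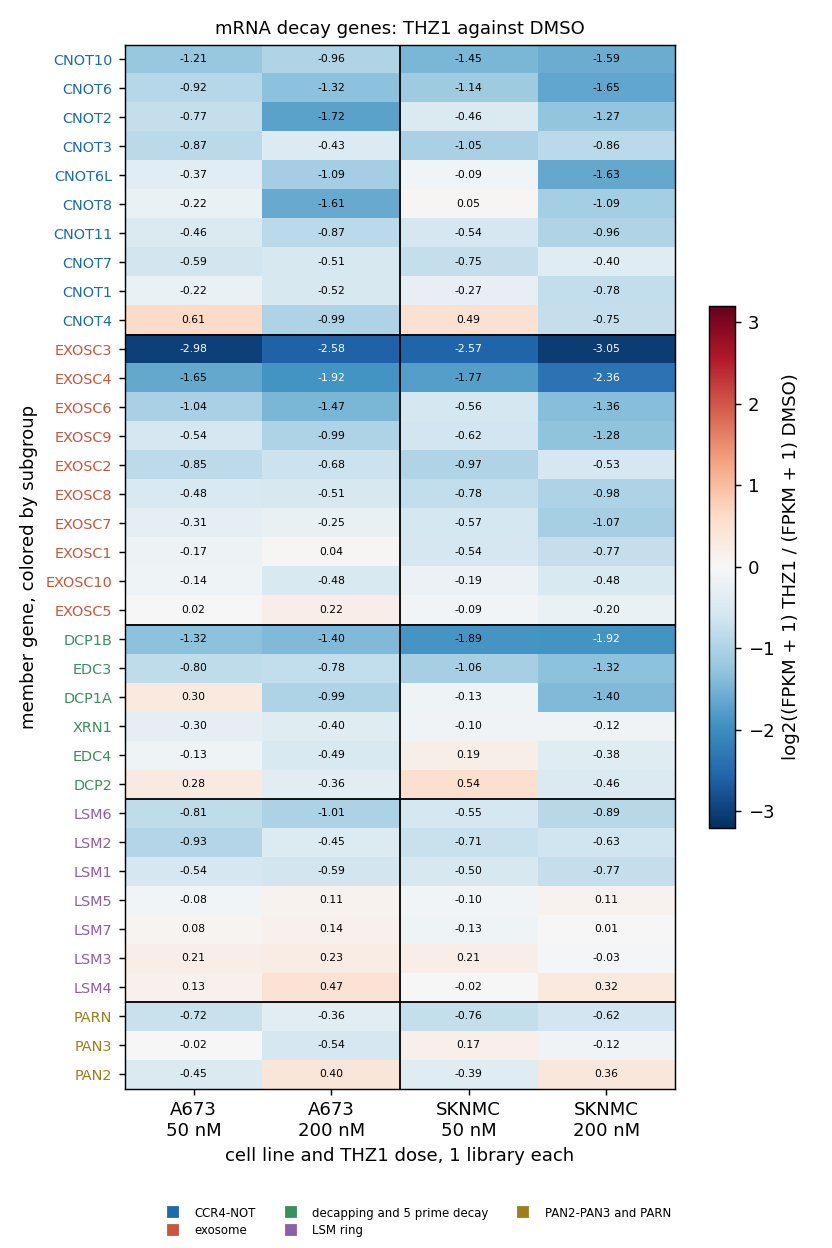
Log2 difference from DMSO (FPKM + 1) of the 36 genes, in rows grouped by complex, for 50 and 200 nM THZ1 in A673 and SKNMC (columns; 1 library each). EXOSC3 has the lowest value of all rows in every column, from -2.57 to -3.05, while LSM4 has the highest value at 200 nM in A673, 0.47.

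At 50 nM in A673, 5 of the 36 genes were at least 2-fold lower, beside 15.9% of the 11077 active genes of that line. The count at 200 nM in A673 was 9 of 36, beside 25.3%. For SKNMC it was 7 of 36 at 50 nM, beside 15.8% of 11896 active genes, and 13 of 36 at 200 nM, beside 27.3%. The counts lie near the background in A673 and at 50 nM in SKNMC. The 75th percentile scaling described below left 4 of 36 at 50 nM in SKNMC, beside 10.3% of active genes. At 200 nM in SKNMC it left 6 of 36, beside 13.4%.

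None of the 36 was at least 2-fold higher in any of the 4 comparisons. Such increases were rare among all active genes too, at 0.343% and 0.126% in A673 and at 0.471% and 0.462% in SKNMC, for 50 and 200 nM. Values below DMSO by any amount were found for 29, 29, 30 and 32 members, in the order A673 at 50 and 200 nM and SKNMC at 50 and 200 nM. Among all active genes the corresponding shares were 70.1%, 70.4%, 73% and 80.8%. In the same order the median log2 difference of the 36 was -0.46, -0.53, -0.52 and -0.77, against -0.27, -0.40, -0.32 and -0.55 for all active genes, and it stayed below that of all active genes under each of 3 other scalings of the libraries, which are described next to EXOSC3, EXOSC4 and DCP1B.

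The differences shared by both lines were tested with limma on log2(FPKM + 1) over the 6 libraries, with dose as a factor and cell line as a block, a test added after the values were seen. It was run on the 10574 genes active in both lines. It leaves 2 residual degrees of freedom, takes the disagreement between the lines as the error, and borrows the spread across genes. Lower at an adjusted p under 0.05 were 18 of the 36 genes at 50 nM, beside 38.5% of genes tested, and 26 at 200 nM, beside 52.7%. Higher were CNOT4 alone at 50 nM, beside 5.12%, and LSM4 alone at 200 nM, beside 6.08%. The step from 50 to 200 nM was lower for 10 members, beside 23.2%, and higher for LSM4 and PAN2, beside 3.37%.

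The shared difference of EXOSC3 was -2.77 ± 0.212 (SE) at 50 nM and -2.81 ± 0.212 at 200 nM on the log2 scale, with adjusted limma p of 9.09e-06 and 1.97e-06, lower in both lines. For EXOSC4 it was -1.71 ± 0.164 and -2.14 ± 0.164, with adjusted limma p of 1.97e-05 and 2.10e-06. DCP1B had -1.61 ± 0.189 and -1.66 ± 0.189, with adjusted limma p of 6.01e-05 and 1.98e-05. Members lower at both doses under all scalings tried were these 3 genes, CNOT6, CNOT10, EXOSC6, EDC3 and LSM6. The share of all tested genes that pass this joint rule was not counted. With the 75th percentile scaling alone, 25.1% of genes tested were lower at 50 nM and 31.9% at 200 nM. With ribosomal protein genes as the scale neither CNOT4 at 50 nM nor LSM4 at 200 nM was higher.

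Across both lines, 23 of the 36 genes were below DMSO in all 4 comparisons, beside 52.9% of the 10574 genes active in both lines. No member was above DMSO in all 4, beside 10% of those genes. At least 1 comparison passed 2-fold for 15 members, beside 37.3%, and 11 members stayed within 1.5-fold of DMSO in all 4, beside 35.5%. The summed level of the 36 genes was 1233, 928 and 923 FPKM in A673 and 1169, 877 and 783 FPKM in SKNMC, for DMSO, 50 nM and 200 nM.

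**Figure D2:**
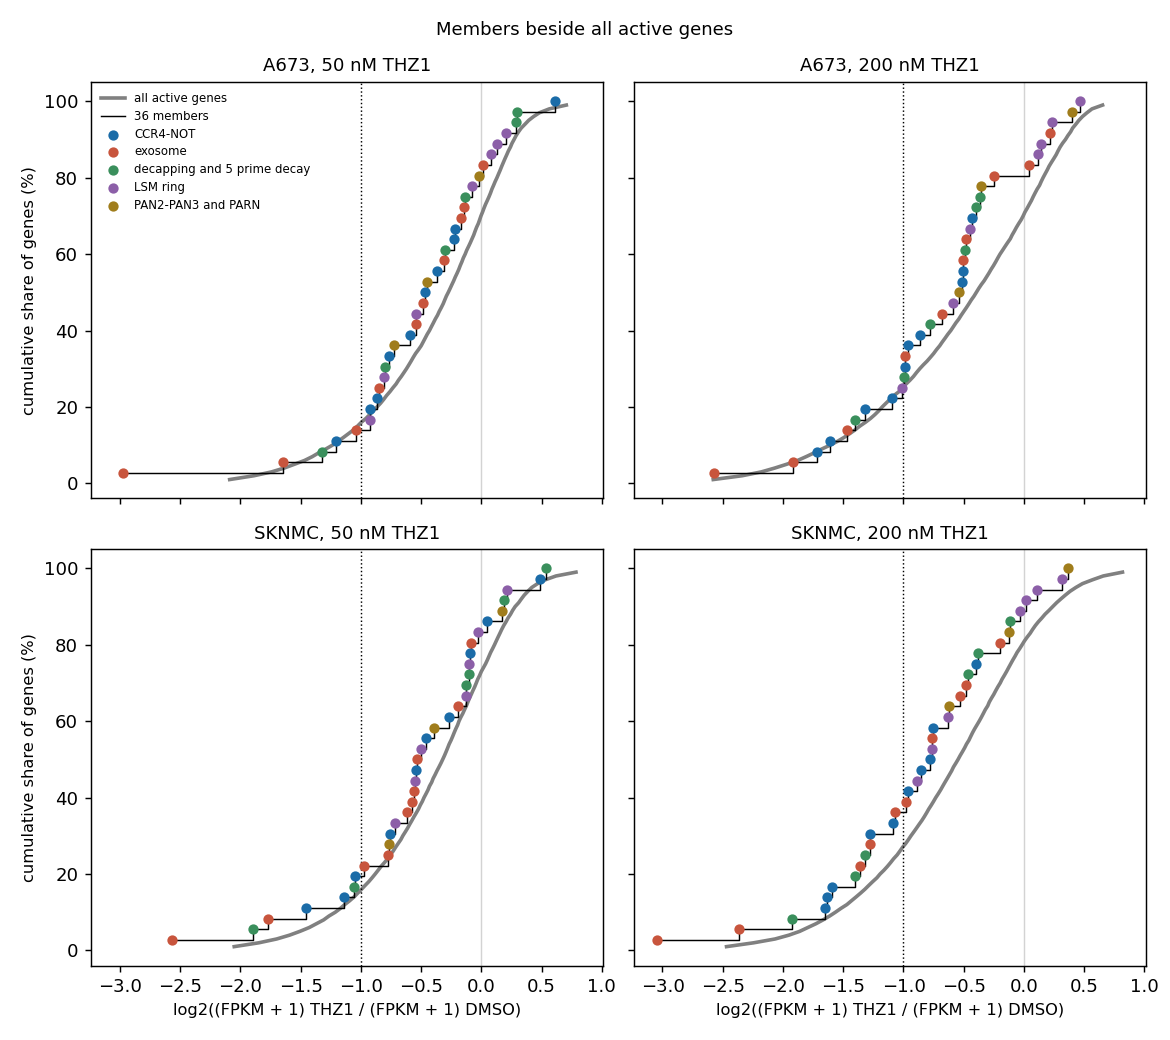
Cumulative share of genes (vertical axis, percent) against log2 difference from DMSO (horizontal axis), for the 36 members and for all active genes, 1 panel per comparison. The member curve lies to the left of the curve of all active genes through its middle, with medians of -0.77 against -0.55 in SKNMC at 200 nM.

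The change furthest from 0 was that of EXOSC3, a cap subunit of the exosome that binds RNA at the mouth of the barrel. EXOSC3 stood at 41.8, 4.45 and 6.19 FPKM in A673, for DMSO and the lower and higher dose. Its levels in SKNMC were 25.6, 3.48 and 2.22 FPKM. Between 8.66% and 14.8% of its DMSO level was left in the 4 THZ1 libraries.

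On the log2 scale EXOSC3 differed from DMSO by -2.98 and -2.58 in A673 and by -2.57 and -3.05 in SKNMC. Only 5 of the 11077 active genes of A673 had a lower value than EXOSC3 at 50 nM, and 115 had one at 200 nM. In SKNMC 17 and 19 of 11896 active genes lay below it. The gene spans chr9:37766974-37801434 on the minus strand (hg19). Its span overlaps DCAF10 and TRMT10B on the other strand, and RP11-613M10.9 on the same strand, which is listed at 1.48e-22 FPKM or less in the 6 libraries. Whether counting used strand is not stated, and 2 named pseudogenes of EXOSC3 exist. DCAF10 was also lower, at 11.6, 4.90 and 2.40 FPKM in A673 and 13.0, 5.20 and 4.01 FPKM in SKNMC, and its part in the EXOSC3 values was not tested.

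EXOSC4, a ring subunit with an RNase PH fold, was the highest exosome gene of A673 with DMSO. It stood at 65.3, 20.2 and 16.5 FPKM in A673 for DMSO, 50 nM and 200 nM. The SKNMC levels of EXOSC4 were 38.6, 10.6 and 6.70 FPKM. The log2 differences were -1.65 and -1.92 in A673 and -1.77 and -2.36 in SKNMC.

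DCP1B, one of the paralogous cofactors that activate the decapping enzyme, was the lowest member in every library except A673 with DMSO. Its levels were 2.50, 0.402 and 0.326 FPKM in A673 and 6.10, 0.909 and 0.870 FPKM in SKNMC. All 4 THZ1 libraries lay below 1 FPKM, at 13.0% to 16.1% of DMSO, a range narrower than that of EXOSC3. The log2 differences of DCP1B, -1.32 and -1.40 in A673 and -1.89 and -1.92 in SKNMC, are reduced by the added 1 FPKM. The gene lies on the minus strand at chr12:2055219-2113701 (hg19). Its span overlaps that of CACNA1C on the other strand, which was between 0.10 and 0.69 FPKM in the 6 libraries.

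EXOSC3, EXOSC4 and DCP1B were the 3 members at least 2-fold lower in all 4 comparisons, beside 8.7% of the genes active in both lines. They remained so under 3 other scalings, in which the values of a library were divided by their 75th percentile over active genes, by their median over ribosomal protein genes or by their listed sum. With CNOT10, 4 members were at least 2-fold lower at 50 nM in both lines, beside 11.4%. At 200 nM in both lines there were 8, beside 20.4%.

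The 250 bases before the start of EXOSC3 and DCP1B, the members with the lowest mean log2 difference in their groups, are shown beside those of LSM4, the member with the highest at 200 nM in A673. They come from the RefSeq promoter table (GRCh38.p14) and are written 5′ to 3′ on the gene's strand, which is the minus strand for each. Capitals mark CCGGAAG, a form of the motif bound by ETS factors, the family to which the FLI1 part of the EWS-FLI1 fusion of these tumours belongs. The positions are chr9:37785093-37785342 for EXOSC3, chr12:2004458-2004707 for DCP1B and chr19:18323077-18323326 for LSM4, on GRCh38.p14, unlike the gene spans above.
EXOSC3: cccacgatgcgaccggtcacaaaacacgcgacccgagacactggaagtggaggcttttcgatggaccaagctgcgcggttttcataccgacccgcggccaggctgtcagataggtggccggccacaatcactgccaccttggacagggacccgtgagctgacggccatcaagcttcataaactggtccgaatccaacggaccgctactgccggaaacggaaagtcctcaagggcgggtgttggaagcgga
DCP1B: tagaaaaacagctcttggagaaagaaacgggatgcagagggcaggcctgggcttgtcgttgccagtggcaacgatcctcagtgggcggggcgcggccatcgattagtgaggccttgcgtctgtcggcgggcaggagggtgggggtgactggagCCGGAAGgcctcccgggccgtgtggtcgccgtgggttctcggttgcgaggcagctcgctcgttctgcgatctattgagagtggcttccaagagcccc
LSM4: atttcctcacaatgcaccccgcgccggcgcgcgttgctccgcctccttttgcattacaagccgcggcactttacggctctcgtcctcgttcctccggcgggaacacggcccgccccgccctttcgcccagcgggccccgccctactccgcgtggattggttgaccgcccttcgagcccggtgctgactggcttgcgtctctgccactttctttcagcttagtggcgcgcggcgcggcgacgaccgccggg

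The DCP1B window holds CCGGAAG once, 97 bases before the start, and the windows of EXOSC3 and LSM4 do not hold it. Promoter windows were found for 30 of the 36 members, 39 windows in all, running from 250 bases before to 50 bases after the start. CCGGAAG or its reverse complement CTTCCGG was in the windows of 5 of these members (DCP1B, EDC3, EDC4, LSM5 and PARN), or 16.7%, against 12.2% of 27305 genes. TATAAA, searched on both strands, was in 1 member (EXOSC8), or 3.33%, against 14.0% of genes. GGAAGGAA, a short form of the GGAA repeat, was in 0 of 30 against 4.50%. The median GC content of the 250-base part was 63.6% for members and 58% for all promoters. The 5 genes with CCGGAAG had log2 differences from -1.92 for DCP1B to 0.19 for EDC4.

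The exosome core is a barrel of 9 subunits, with EXOSC4 to EXOSC9 in the ring and EXOSC1 to EXOSC3 in the cap, and in human cells the core itself has no catalytic activity. EXOSC10 adds a nuclear 3′ to 5′ exonuclease. At least 2-fold lower were 3 of the 10 exosome genes at either dose in A673, 2 at 50 nM in SKNMC and 5 at 200 nM in SKNMC, beside 15.9%, 25.3%, 15.8% and 27.3% of active genes. The median log2 difference was -0.51 and -0.59 in A673 and -0.59 and -1.03 in SKNMC. Relative to all active genes, these medians were 0.24, 0.20, 0.27 and 0.48 lower on the log2 scale.

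The transcript levels of the barrel genes became less even by the ratio of highest to lowest FPKM. With DMSO the lowest of EXOSC1 to EXOSC9 was EXOSC6, and the highest stood 3.08-fold above the lowest in A673 and 3.91-fold in SKNMC. With THZ1 the lowest was EXOSC3 in all 4 libraries. The ratio of highest to lowest was 8.89 and 6.28 in A673 and 10.0 and 11.0 in SKNMC at 50 and 200 nM. These ratios rest on the EXOSC3 levels given above and were not taken without that gene. The next lowest gene with THZ1 was EXOSC6, at 9.82 and 7.03 FPKM in A673 and 8.75 and 4.60 FPKM in SKNMC. The highest levels there were 39.5 and 38.8 FPKM in A673 and 34.8 and 24.3 FPKM in SKNMC.

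Among the ring genes EXOSC6 followed EXOSC4. EXOSC6 stood at 21.2, 9.82 and 7.03 FPKM in A673 and at 13.4, 8.75 and 4.60 FPKM in SKNMC, for DMSO, 50 nM and 200 nM. Its log2 differences were -1.04, -1.47, -0.56 and -1.36. The value at 50 nM in A673 lies just past 2-fold, and dividing by the 75th percentile brought it to -0.80 and the value at 200 nM in SKNMC to -0.88.

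EXOSC7 and EXOSC9, also ring subunits, passed 2-fold only at 200 nM in SKNMC. EXOSC7 was 24.9, 19.9 and 20.8 FPKM in A673 and 52.2, 34.8 and 24.3 FPKM in SKNMC. EXOSC9 was 56.7, 38.6 and 28.1 FPKM in A673 and 39.8, 25.6 and 15.8 FPKM in SKNMC. At 200 nM in SKNMC the log2 difference was -1.07 for EXOSC7 and -1.28 for EXOSC9, and after division by the 75th percentile it was -0.52 and -0.74. EXOSC8 lay just inside the threshold in that comparison, at -0.98, and ranged from there to -0.48 at 50 nM in A673.

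EXOSC5, a ring subunit as well, differed by less than 1.5-fold from DMSO in all comparisons. Its level was 28.5, 28.8 and 33.3 FPKM in A673 and 28.1, 26.4 and 24.3 FPKM in SKNMC. It was above DMSO at both doses in A673 and below it at both in SKNMC, the only member with that order, beside 4.39% of genes active in both lines. With division by the 75th percentile all 4 values were above DMSO, and with division by ribosomal protein genes all 4 were below it.

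EXOSC10 was 38.5, 34.8 and 27.4 FPKM in A673 and 46.3, 40.3 and 32.8 FPKM in SKNMC. Its log2 differences, from -0.14 to -0.48, were smaller at 50 nM than at 200 nM in both lines. The cap genes EXOSC1 and EXOSC2 did not pass 2-fold, with log2 differences from -0.77 to 0.04 for EXOSC1 and from -0.97 to -0.53 for EXOSC2.

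**Figure D3:**
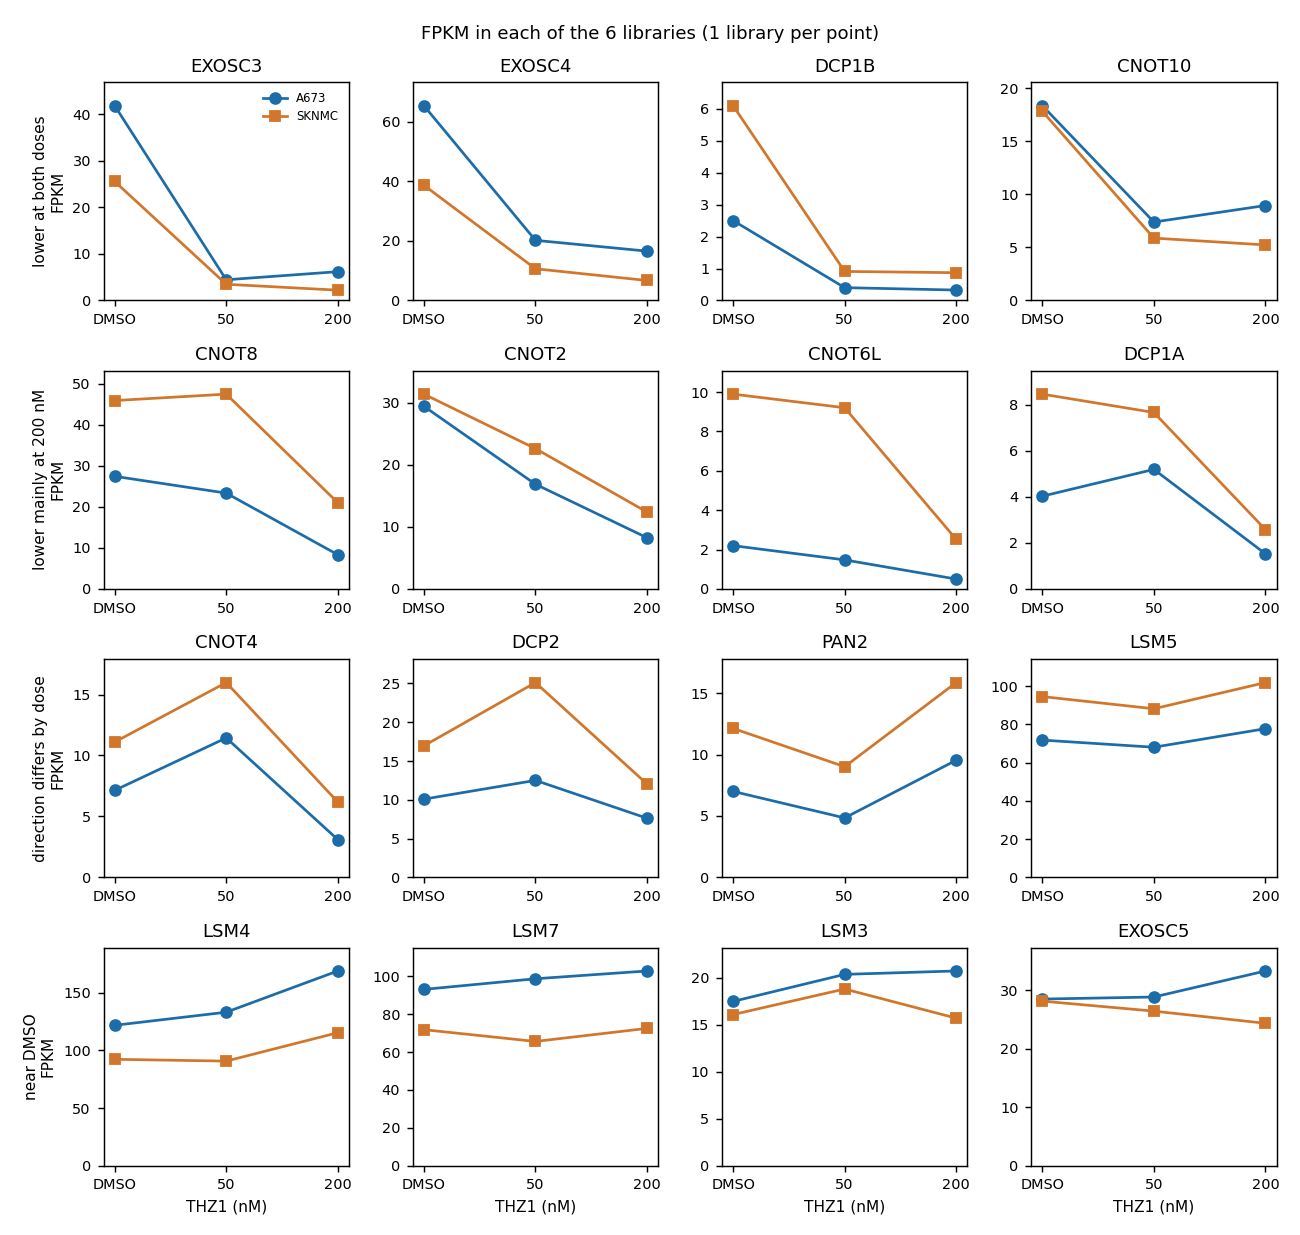
FPKM (vertical axis, linear from 0) with DMSO, 50 nM and 200 nM THZ1 (horizontal axis, conditions evenly spaced) for 16 of the genes, with 1 point per library and lines joining the libraries of a cell line. EXOSC3, EXOSC4 and DCP1B are lower at both doses, whereas the level of PAN2 at 200 nM lies above its DMSO level in both lines.

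In the CCR4-NOT complex, CNOT1 is the scaffold, CNOT2 and CNOT3 form the NOT module, and CNOT10 and CNOT11 form a module at the N-terminus of CNOT1. The nucleases come as paralogs, CNOT6 or CNOT6L of the CCR4 type and CNOT7 or CNOT8 of the CAF1 type. At least 2-fold lower were 1 and 4 of the 10 listed genes in A673 at 50 and 200 nM, and 3 and 5 in SKNMC. These counts stand beside the same 15.9%, 25.3%, 15.8% and 27.3% of active genes. The median log2 difference moved from -0.53 to -0.97 in A673 and from -0.50 to -1.02 in SKNMC. Relative to all active genes the medians were lower by 0.25 and 0.58 in A673 and by 0.18 and 0.48 in SKNMC, and they stayed lower under all 3 other scalings. RQCD1, which is not among these 10 genes, had log2 differences of -0.69, -1.25, -0.42 and -1.85.

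CNOT10 had the lowest mean log2 difference of the complex. It was 18.4, 7.39 and 8.95 FPKM in A673 and 17.8, 5.88 and 5.24 FPKM in SKNMC. The log2 differences were -1.21, -0.96, -1.45 and -1.59, and the first became -0.98 after division by the 75th percentile. CNOT11, its partner, ranged from -0.46 to -0.96.

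CNOT1 was the highest gene of the complex in A673 with DMSO. Its levels were 59.9, 51.4 and 41.5 FPKM in A673 and 46.0, 38.0 and 26.3 FPKM in SKNMC. The log2 differences of this scaffold, from -0.22 to -0.78, did not pass 2-fold.

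CNOT2 and CNOT3, which bind each other, were below DMSO at both doses but had their lowest levels at different doses. CNOT2 was 29.4, 16.9 and 8.24 FPKM in A673 and 31.4, 22.6 and 12.4 FPKM in SKNMC. It was lower at 200 nM than at 50 nM, with log2 differences from DMSO of -0.77 and -1.72 in A673 and -0.46 and -1.27 in SKNMC. CNOT3 was 26.7, 14.2 and 19.5 FPKM in A673 and 24.2, 11.2 and 12.9 FPKM in SKNMC. The lowest CNOT3 level was at 50 nM in both lines, and its value of -1.05 at that dose in SKNMC was the only one past 2-fold. With the ribosomal protein scaling the SKNMC order of CNOT3 was reversed, at -1.36 for 50 nM and -1.40 for 200 nM.

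The CCR4-type pair differed between the lines before treatment. CNOT6 made up 91.4% of the summed FPKM of CNOT6 and CNOT6L in A673 with DMSO and 72.2% in SKNMC. CNOT6 was 23.4, 11.9 and 8.80 FPKM in A673 and 25.7, 11.1 and 7.48 FPKM in SKNMC, with log2 differences of -0.92, -1.32, -1.14 and -1.65. CNOT6L was 2.20, 1.47 and 0.500 FPKM in A673 and 9.90, 9.21 and 2.52 FPKM in SKNMC.

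CNOT6 was near or past 2-fold at 50 nM and CNOT6L was not, but with the 75th percentile scaling CNOT6 was -0.68 and -0.87 at that dose and -0.97 at 200 nM in A673. The log2 differences of CNOT6L were -0.37 and -0.095 at 50 nM and -1.09 and -1.63 at 200 nM, for A673 and SKNMC. The sum of both genes at 200 nM was 36.3% of DMSO in A673 and 28.1% in SKNMC.

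The CAF1-type pair also differed between the doses. CNOT7 was 53.0, 34.9 and 37.0 FPKM in A673 and 46.5, 27.2 and 35.1 FPKM in SKNMC. CNOT8 was 27.4, 23.3 and 8.34 FPKM in A673 and 45.9, 47.5 and 21.0 FPKM in SKNMC. CNOT7 was lowest at 50 nM, and CNOT8 was close to DMSO at 50 nM and low at 200 nM. With the ribosomal protein scaling the order of CNOT7 in A673 was reversed, at -0.83 for 50 nM and -0.90 for 200 nM.

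The share of CNOT7 in the summed FPKM of the pair was 65.9%, 60.0% and 81.6% in A673 and 50.3%, 36.4% and 62.5% in SKNMC. It moved in the same order in both lines, down at 50 nM and up at 200 nM, and as a ratio within a library it does not depend on the scaling. From 50 to 200 nM, the log2 level of CNOT8 was lower by 1.38 in A673 and by 1.14 in SKNMC. Of these genes CNOT7 has 2 named pseudogenes, and CNOT7 overlaps VPS37A.

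CNOT4, an E3 ubiquitin ligase that is not a stable subunit of the human complex, had the highest mean log2 difference of the group. Its levels were 7.14, 11.4 and 3.10 FPKM in A673 and 11.1, 16.0 and 6.18 FPKM in SKNMC. It was above DMSO at 50 nM and below DMSO at 200 nM in both lines, with log2 differences of 0.61, -0.99, 0.49 and -0.75. These signs were kept under all 3 other scalings, though none of these 4 values passed 2-fold. At 200 nM in A673 43.4% of its DMSO level was left, which is past 2-fold without the added 1 FPKM.

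DCP1A and DCP1B are the paralogs that hold DCP2 in its active form. DCP1A was 4.03, 5.20 and 1.53 FPKM in A673 and 8.47, 7.67 and 2.58 FPKM in SKNMC. The log2 differences of DCP1A were 0.30 and -0.13 at 50 nM and -0.99 and -1.40 at 200 nM, for A673 and SKNMC. DCP1A therefore differed little from DMSO at the dose at which DCP1B was already at about its lowest level.

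DCP1A made up 61.7%, 92.8% and 82.4% of the summed FPKM of the pair in A673, and 58.1%, 89.4% and 74.8% in SKNMC. In A673 the sum of both was 85.7% and 28.4% of DMSO at the lower and higher dose, and in SKNMC it was 58.9% and 23.7%. Both lines thus had the pair's lowest sum at the higher dose.

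DCP2, which removes the cap, was 10.1, 12.5 and 7.62 FPKM in A673 and 17.0, 25.1 and 12.0 FPKM in SKNMC. Like CNOT4 it was above DMSO at 50 nM and below it at 200 nM, with log2 differences of 0.28, -0.36, 0.54 and -0.46, but division by the 75th percentile turned the last to 0.07. CNOT4 and DCP2 were the 2 members with this order in both lines, beside 6.93% of genes active in both.

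EDC3 and EDC4 enhance decapping. EDC3 was 21.5, 11.9 and 12.0 FPKM in A673 and 22.3, 10.2 and 8.31 FPKM in SKNMC. It passed 2-fold only in SKNMC, at -1.06 and -1.32, and with the 75th percentile scaling these values were -0.79 and -0.80. EDC4 ranged from -0.49 to 0.19.

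XRN1, the cytoplasmic 5′ to 3′ exonuclease, was low in level and near its DMSO value. It stood at 4.82, 3.73 and 3.43 FPKM in A673 and at 7.10, 6.55 and 6.46 FPKM in SKNMC, with log2 differences from -0.40 to -0.10. Over the 6 decapping and 5′ decay genes, 1 was at least 2-fold lower at either dose in A673, and 2 and 3 were in SKNMC at 50 and 200 nM, beside 15.9%, 25.3%, 15.8% and 27.3% of active genes. The group's median was above that of all active genes at 50 nM, by 0.058 in A673 and 0.21 in SKNMC, and lower at 200 nM, by 0.24 and 0.34.

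The LSM ring was the group whose median was furthest above that of all active genes at 200 nM. Its median log2 difference was -0.076 and 0.11 in A673 and -0.13 and -0.033 in SKNMC. This was 0.20 and 0.51 above the median of all active genes for A673, and 0.19 and 0.51 above it for SKNMC. The direction held under all 3 other scalings, with distances from 0.14 to 0.58, but against DMSO the ring's median turned to between 0.16 and 0.51 with the 75th percentile and to between -0.58 and -0.29 with ribosomal protein genes.

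LSM4 had the highest mean log2 difference of the ring. It was 122, 133 and 169 FPKM in A673 and 92.3, 90.7 and 115 FPKM in SKNMC. At 200 nM its log2 difference was 0.47 in A673 and 0.32 in SKNMC, and in SKNMC division by ribosomal protein genes turned it to -0.26. At that dose 95.4% of the active genes of A673 and 92.4% of those of SKNMC lay below it.

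LSM6 was the only LSM gene past 2-fold. It was 39.8, 22.3 and 19.2 FPKM in A673 and 45.3, 30.5 and 24.0 FPKM in SKNMC, with log2 differences of -0.81, -1.01, -0.55 and -0.89. The value of -1.01 at 200 nM in A673 lies at the threshold and was -0.65 with the 75th percentile scaling. DCP1A, at -0.99, lay just on the other side in that comparison. Its level there was 37.9% of DMSO, which is past 2-fold without the added 1 FPKM.

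The other ring genes formed a lower and a nearly level set. LSM1, the subunit found only in the cytoplasmic ring, ranged from -0.77 to -0.50 and LSM2 from -0.93 to -0.45. LSM3 ranged from -0.033 to 0.23, LSM5 from -0.10 to 0.11 and LSM7 from -0.13 to 0.14. LSM3 has 4 named pseudogenes, LSM1 has 2 and LSM6 has 1, and reads shared with such copies could be assigned to either.

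PAN2, the nuclease of the PAN2-PAN3 enzyme, had a dose order unlike that of most members. Its levels were 7.0, 4.84 and 9.54 FPKM in A673 and 12.1, 9.02 and 15.9 FPKM in SKNMC. It was below DMSO at 50 nM and above it at 200 nM, with log2 differences of -0.45, 0.40, -0.39 and 0.36. LSM5 had the same order of signs, though not after the 75th percentile or ribosomal protein scaling, and 2.01% of genes active in both lines did. With division by ribosomal protein genes the PAN2 value at 200 nM in SKNMC was -0.19.

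PAN3, the adaptor that brings PAN2 to mRNA, was 13.3, 13.2 and 8.86 FPKM in A673 and 15.8, 17.9 and 14.4 FPKM in SKNMC. PAN2 made up 34.4%, 26.9% and 51.9% of the summed FPKM of the pair in A673, and 43.4%, 33.4% and 52.4% in SKNMC. The share was lowest at 50 nM and highest at 200 nM in both lines, and it does not depend on the scaling. PAN2 overlaps CNPY2 on the same strand, whose levels were 74.8, 77.7 and 88.3 FPKM in A673 and 48.6, 39.0 and 45.2 FPKM in SKNMC.

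PARN, a poly(A)-specific ribonuclease that also trims small noncoding RNAs, was 21.8, 12.8 and 16.8 FPKM in A673 and 16.9, 9.54 and 10.7 FPKM in SKNMC. Its log2 differences were -0.72, -0.36, -0.76 and -0.62, lowest at 50 nM in both lines. With the ribosomal protein scaling its SKNMC order was reversed, at -1.07 for 50 nM and -1.15 for 200 nM. None of PAN2, PAN3 and PARN passed 2-fold in any comparison.

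The difference between the doses was then taken directly, as the log2 level at 200 nM minus that at 50 nM. It does not use the DMSO library. Of the 36 genes 20 were lower at 200 nM in A673, beside 51.7% of active genes, and 27 in SKNMC, beside 62%. The median was -0.063 in A673 and -0.28 in SKNMC, against -0.019 and -0.14 for all active genes.

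At least 2-fold lower at 200 nM than at 50 nM were 3 members in A673, beside 7.44%, and 5 in SKNMC, beside 8.39%. None was at least 2-fold higher, beside 0.117% and 0.37%. CNOT4, CNOT8 and DCP1A passed 2-fold in both lines, beside 5.22% of genes active in both. The step was -1.60 and -1.24 for CNOT4, -1.38 and -1.14 for CNOT8, and -1.29 and -1.28 for DCP1A, in A673 and SKNMC. The 75th percentile scaling brought the SKNMC step of CNOT8 to -0.88. CNOT6L and DCP2 passed it in SKNMC only, CNOT6L at -1.54 and DCP2 at -1.002, which was -0.75 with the 75th percentile scaling and -0.99 with the common sum.

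In the test with cell line as a block the shared step was -1.42 ± 0.176 (SE) for CNOT4, -1.26 ± 0.163 for CNOT8 and -1.29 ± 0.186 for DCP1A. The adjusted limma p was 0.000196, 0.000246 and 0.000472, and all 3 stayed lower under each scaling.

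PAN2 took the opposite step, 0.85 in A673 and 0.75 in SKNMC, and was the 1 member at least 1.5-fold higher at 200 nM than at 50 nM in both lines, beside 0.728%. Its shared step was 0.80 ± 0.167 (SE), with an adjusted limma p of 0.00424, and was higher under each scaling. CNOT2, CNOT6L and CNOT8 were at least 2-fold lower than DMSO at 200 nM in both lines and at 50 nM in neither, beside 8.17%. With the 75th percentile scaling this dose order lost its 200 nM call for CNOT6L in A673, at -0.96, and for CNOT2 and CNOT8 in SKNMC, at -0.74 and -0.54.

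**Figure D4:**
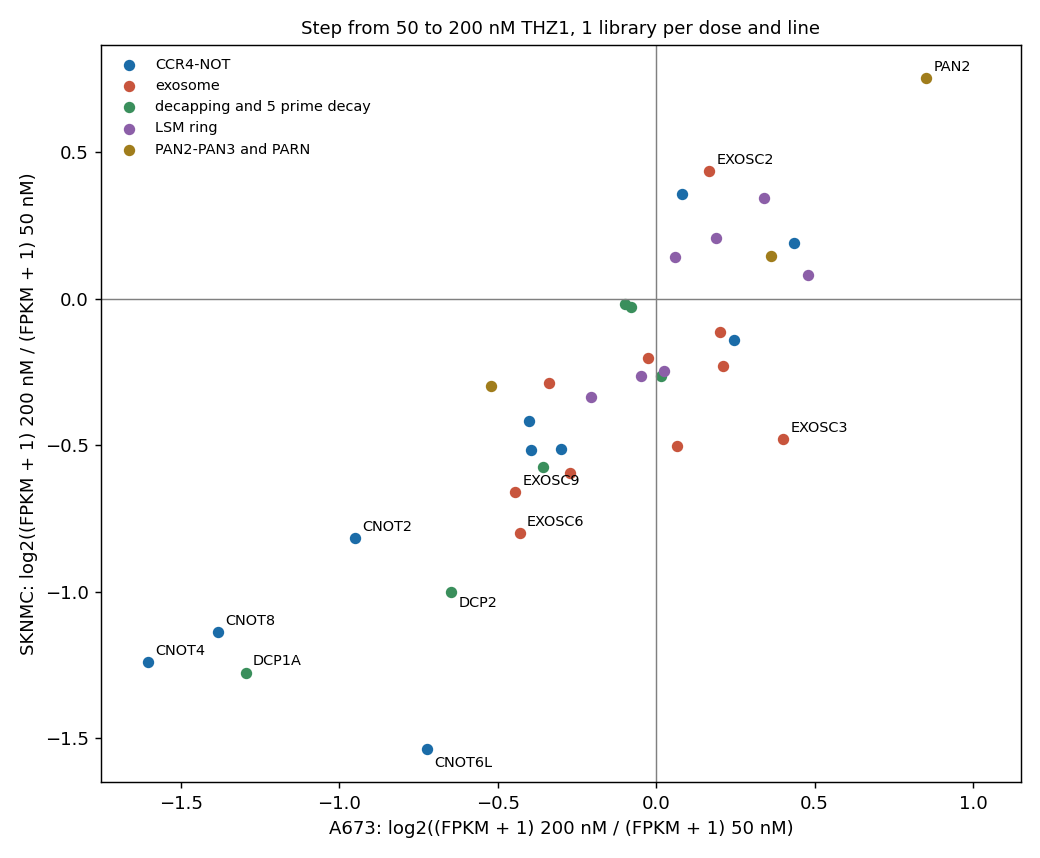
Log2 step from 50 to 200 nM THZ1 in SKNMC (vertical axis) against the same step in A673 (horizontal axis), 1 point per gene from 1 library per dose and line, coloured by complex. CNOT4, CNOT8 and DCP1A lie beyond -1 on both axes, and PAN2 stands apart at 0.85 and 0.75.

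Gene length was compared with these values as a description. The spans of the members run from 1.70 to 197 kb, with a median of 21.0 kb. Across the 36 genes, which share their libraries and are not independent, the Spearman correlation of span with the step from 50 to 200 nM was -0.31 in A673 and -0.27 in SKNMC, beside -0.23 and -0.16 over all active genes. With the difference from DMSO it was 0.09 and -0.21 in A673 and 0.10 and -0.17 in SKNMC, at 50 and 200 nM. Over all active genes those correlations were 0.18, -0.014, 0.18 and 0.043.

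With DMSO alone, the lines had like levels of most members. SKNMC was at least 2-fold above A673 for CNOT6L, EXOSC7 and DCP1B, 3 of 36 beside 8.96% of the genes active in both, with log2 differences of 1.77, 1.04 and 1.02. None was at least 2-fold below, beside 6.93%. The median difference was -0.0018 for members and 0.049 for the genes active in both lines.

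Genes that work beside the 36 were taken from lists of exosome nucleases and cofactors, nonsense-mediated decay factors and uridylating enzymes. Further lists held deadenylase adaptors with poly(A)-binding and related genes, RQCD1 among them, and decapping cofactors with other 5′ factors. Of 52 listed genes 51 matched and 50 were active. At least 2-fold lower were 5 and 16 of these in A673 and 4 and 17 in SKNMC, at 50 and 200 nM, where 50 nM counts are smaller and 200 nM counts larger than 15.9%, 25.3%, 15.8% and 27.3% of active genes would give. The lower dose had 1 gene at least 2-fold higher for A673 and 2 for SKNMC, and the higher dose had 0.

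ZCCHC7, the zinc knuckle protein of the TRAMP complex that feeds nuclear RNA to the exosome, was past 2-fold at both doses. It was 11.0, 3.46 and 3.21 FPKM in A673 and 10.4, 3.44 and 2.64 FPKM in SKNMC. SMG9, a partner of the SMG1 kinase in nonsense-mediated decay, was 20.4, 3.68 and 6.61 FPKM in A673 and 12.2, 1.65 and 1.83 FPKM in SKNMC. BTG2, which links CAF1-type deadenylases to poly(A)-binding protein, was 3.92, 0.738 and 0.909 FPKM in A673 and 13.7, 3.07 and 2.74 FPKM in SKNMC.

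The adaptors TOB1 and TNRC6B were instead at least 2-fold higher at 50 nM, TOB1 in SKNMC and TNRC6B in both lines. TNRC6B, which ties microRNA complexes to CCR4-NOT, was 5.44, 12.9 and 2.27 FPKM in A673 and 3.45, 21.3 and 4.97 FPKM in SKNMC. TOB1, a relative of BTG2, was 4.71, 7.86 and 2.49 FPKM in A673 and 8.56, 24.4 and 10.6 FPKM in SKNMC. Like CNOT4, both genes had their highest level at 50 nM in each line.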

How the data were processed

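Each of the 6 conditions (A673 or SKNMC, with DMSO, 50 nM or 200 nM THZ1, for 6 h) is 1 library, and conditions were read from the sample titles. The authors sequenced 100-bp paired-end TruSeq libraries on a HiSeq2000, aligned reads to hg19 with STAR and Ensembl 75, and deposited FPKM values. The methods name StringTie for FPKM, while the submitters' processing notes name Cufflinks. The strandedness of the libraries and of counting is not given in the sources used here. The 4 deposited columns of log2 fold changes against DMSO were not used. FPKM keeps no read count, so depth is unknown and no counting interval is given.

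Differences are log2((FPKM + 1)/(FPKM + 1)). Active genes had FPKM above 1 with DMSO in the line, and genes were counted as lower or higher from 2-fold. Within a line no test was made, with 1 library per condition. Differences shared by both lines were tested with limma 3.58.1 (R 4.3.3) with cell line as a block and Benjamini-Hochberg adjustment over all genes active in both lines. The members and lists were chosen with earlier results of these data known. Values in each library are given for members past 2-fold in any comparison, for the paralog pairs, for CNOT1, EXOSC10, DCP2 and XRN1, and for the highest and lowest mean log2 difference in each group. Genes beside the members are named where they passed 2-fold at 50 nM in both lines or were 2-fold higher anywhere. Alternatives were a pseudocount of 0.1, an active minimum of 5 FPKM, a 1.5-fold threshold and 3 scalings: the 75th percentile of active genes, the median of 77 ribosomal protein genes and a common sum. In the order A673 at 50 and 200 nM, then SKNMC at 50 and 200 nM, the first scaling shifted the median of all active genes by 0.22, 0.32, 0.25 and 0.48, the second by -0.21, -0.33, -0.29 and -0.46 and the third by at most 0.026. Overlaps came from the coordinates listed in the deposited table (hg19), pseudogenes from GENCODE release 44 on GRCh37, and promoter windows from RefSeq (GRCh38.p14). Only some of the overlaps found are named here, and CNOT4 and CNOT6L also have 1 named pseudogene each. Python 3.11.15, pandas 2.3.3, scipy 1.17.1 and matplotlib 3.10.9 were used, and the steps were tested on simulated data.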

Additional observations from a re-analysis of the deposited data

Results flagged for a closer look

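The difference from DMSO had opposite signs at the 2 doses in both lines for CNOT4, DCP2, LSM5 and PAN2, and opposite signs in the 2 lines at both doses for EXOSC5. The difference between the lines is the error of the test with cell line as a block and was not tested. In the order A673 at 50 and 200 nM, then SKNMC at 50 and 200 nM, the log2 differences of CNOT4 were 0.61, -0.99, 0.49 and -0.75. Those of DCP2 were 0.28, -0.36, 0.54 and -0.46. LSM5 had -0.076, 0.11, -0.10 and 0.11, and the values of PAN2 were -0.45, 0.40, -0.39 and 0.36. For EXOSC5 the values were 0.017, 0.22, -0.087 and -0.20. The step from 50 to 200 nM shared by both lines had an adjusted limma p of 0.000196 for CNOT4, 0.00374 for DCP2, 0.00424 for PAN2 and 0.245 for LSM5. That step does not test either sign against DMSO. Against DMSO, at 50 and 200 nM, the adjusted limma p was 0.0249 and 0.00121 for CNOT4 and 0.0658 and 0.0526 for DCP2. It was 0.0588 and 0.0692 for PAN2, and 0.577 and 0.448 for LSM5. Only CNOT4 was below 0.05 at both doses.

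All 3 other scalings kept the signs of CNOT4. With the 75th percentile scaling DCP2 at 200 nM in SKNMC was 0.07, and with the ribosomal protein scaling PAN2 was -0.19 there. LSM5 and EXOSC5 were above DMSO in all 4 comparisons under the first of these scalings and below it in all 4 under the second.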

How the results depend on the processing

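In the order A673 at 50 and 200 nM, then SKNMC at 50 and 200 nM, the count of members at least 2-fold lower was 5, 9, 7 and 13. At a 1.5-fold threshold it was 14, 17, 13 and 23, beside 31.8%, 41.1%, 33.5% and 48.0% of active genes. With a pseudocount of 0.1 it was 5, 13, 8 and 14, beside 21.6%, 31.1%, 22.5% and 34.3%. It was 3, 6, 4 and 6 after division by the 75th percentile, beside 11.0%, 17.3%, 10.3% and 13.4%, and 12, 16, 12 and 25 after division by the median of ribosomal protein genes, beside 21.9%, 36.4%, 25.7% and 50.5%. The median log2 difference of the members was -0.23, -0.17, -0.24 and -0.24 with the 75th percentile scaling and -0.68, -0.91, -0.85 and -1.34 with the ribosomal protein scaling. The calls lost with the 75th percentile were those of CNOT10 and EXOSC6 at 50 nM and CNOT6, CNOT6L and LSM6 at 200 nM in A673, and of CNOT3, CNOT6 and EDC3 at 50 nM and CNOT2, CNOT8, DCP1A, EDC3, EXOSC6, EXOSC7 and EXOSC9 at 200 nM in SKNMC. No 2-fold call against DMSO was lost with the ribosomal protein scaling or the common sum. The median over the 36 genes stayed below 0 under the alternatives run, while the LSM ring's median and LSM5, EXOSC5, DCP2 and PAN2 changed sign as given above. In the added test with cell line as a block, 18, 26 and 10 members were lower at 50 nM, at 200 nM and at 200 against 50 nM. The shares of all genes tested were 38.5%, 52.7% and 23.2%. With the 75th percentile the member counts were 14, 14 and 7, beside 25.1%, 31.9% and 16.8% of genes tested. With the ribosomal protein scaling they were 24, 32 and 14, beside 58.0%, 79.4% and 30.6%. The scalings assume different genes to be level, and the data hold no added standard to choose among them. Depth is unknown, so the precision of low values such as those of DCP1B and CNOT6L cannot be given.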

Other observations

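Among genes beside the members, the exosome nucleases DIS3, mainly nuclear, and DIS3L, its cytoplasmic relative, were chosen for mention after their values were seen. DIS3 was 12.7, 9.71 and 5.67 FPKM in A673 and 18.9, 16.6 and 8.76 FPKM in SKNMC, for DMSO, 50 nM and 200 nM. Its log2 difference passed 2-fold at 200 nM in both lines, at -1.04 in A673 and -1.03 in SKNMC, and at 50 nM it was -0.35 and -0.18. DIS3L was 4.92, 2.07 and 2.42 FPKM in A673 and 13.6, 6.77 and 6.36 FPKM in SKNMC. Its log2 differences of FPKM + 1 ran from -0.98 to -0.79, none past 2-fold. In FPKM without the added 1, DIS3L was more than 2-fold below DMSO at both doses in both lines.

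By list, the exosome nucleases and cofactors had 3, 4, 2 and 6 of 15 active genes at least 2-fold lower, in the order A673 at 50 and 200 nM, then SKNMC at 50 and 200 nM, beside 15.9%, 25.3%, 15.8% and 27.3% of active genes for this and the next lists. The nonsense-mediated decay factors had 1, 3, 1 and 3 of 10. The list of deadenylase adaptors, poly(A)-binding and related genes, RQCD1 among them, had 1, 6, 1 and 5 of 15. The decapping cofactors and other 5′ factors had 0, 2, 0 and 3 of 8, and the uridylating enzymes 0, 1, 0 and 0 of 2.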
